A study of Homo sapiens with 10 samples.

Results

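Transcripts of 39 genes of the DNA replication machinery were counted in single cells of HCT-116, a colon carcinoma line in long use, with and without doxorubicin (DOX). The genes were chosen by name, with earlier results of these data known. All 39 were found by symbol among the 32738 genes of the count tables. They fall into 8 groups by role: the MCM2-7 helicase ring (6 genes), CDC45 and GINS (5), origin recognition, licensing and firing (6), polymerases and primase (9), the clamp and clamp loader (5), RPA (3), flap removal and ligation (2), and fork protection with CDT1 turnover (3). DOX is an anthracycline that poisons topoisomerase II. The single-cell RNA-Seq data are 4 droplet libraries of a single line at 1 dose and 1 time: untreated replicates 1 and 2, and DOX replicates 1 and 2, from cells given 200 nM DOX for 24 h and then kept for 6 d without drug. The labels do not say whether replicates are separate cultures, so a p-value here measures only the spread between these libraries. The study's 6 bulk RNA-Seq samples were not analysed here.

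Replication starts where the origin recognition complex, CDC6 and CDT1 load the MCM2-7 ring onto DNA in G1. On entry into S phase, CDC45, GINS and MCM10 turn the loaded ring into an active helicase, polymerase alpha with primase starts each strand, and polymerases epsilon and delta extend the strands on the PCNA clamp, which the RFC complex loads. RPA coats the single strand, and FEN1 and LIG1 join the lagging-strand pieces. Most of these genes are known targets of the E2F factors, which drive entry into S phase.

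Comparisons were made in deep barcodes, those with at least 20000 unique molecular identifiers (UMIs) and under 8% mitochondrial UMIs. There were 3572 and 2137 such barcodes in the untreated and 1307 and 1080 in the DOX libraries, with median depths from 72676 to 84830 UMIs. They held at least 91.8% of the UMIs in each untreated library but 64.9% and 60.0% in the DOX libraries, and 5 to 24 barcode sequences were shared by any pair of libraries. The p53 target CDKN1A followed the labels, with 29.1 and 29.3 CPM in the untreated and 281 and 239.6 CPM in the DOX libraries, and so did GDF15 (42.0 and 32.6 against 312 and 253 CPM) and MDM2 (57.0 and 59.6 against 157 and 149 CPM). The epithelial genes EPCAM, KRT8, KRT18 and CDH1 summed to 2867 and 2553 CPM in the untreated and 4368 and 4103 CPM in the DOX libraries, with EPCAM called lower (log2 fold change -0.37) and the other 3 higher, and their part in the results was not tested. The 6 listed markers of blood and connective tissue cells that the tables hold summed to 2.77 and 2.84 CPM in the untreated and 4.66 and 4.75 CPM in the DOX libraries. Nearly all of it was COL1A1, and COL1A2 was at 0 in all 4. The 2 with enough counts to test, COL1A1 (log2 fold change 0.51) and PTPRC (3.71), were both called higher with DOX, where 28.2% of all genes tested were. Their part in the results was not tested. MALAT1, a nuclear RNA, was higher with DOX (4878 and 5133 against 8932 and 8719 CPM), and its part in the results below was not tested.

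The promoters of the 39 genes are shown as a description, and their part in the DOX change was not tested. Of the 39 genes, 33 had at least 1 promoter in the RefSeq table (GRCh38.p14, 250 bases before to 50 after the start). Of these 33, 20 held a perfect E2F word in at least 1 promoter, against 3.99% of the 27305 genes of the table. A gene with several promoters was counted when any of them held a word, in both groups alike. MCM7, GMNN, PCNA and TIPIN also had promoters without an E2F word. MCM4, MCM5, GINS4, POLD3, RPA2 and RPA3 had no entry. E2F words here are TTTCGCGC, TTTGGCGC, TTTCCCGC and TTTGCCGC on either strand. CCAAT and TTTGAA were also sought on either strand, so a CCAAT word on the opposite strand reads ATTGG in the sequences below. CCAAT, the letters bound by NF-Y, stood in 21 of the 33 against 39.7% of all genes, and an E2F word together with CCAAT in 12 of the 33 against 1.48%. TTTGAA, the cell cycle homology region of many mitotic genes, stood in 0 of the 33 against 18.2% of all genes. An E2F word was held by all 4 MCM2-7 genes of the table and by all 3 of TIPIN, CLSPN and DTL, while FEN1, RFC4 and ORC1 were without these letters in this window. A match is a description of the letters only, and nothing about binding was measured. The 6 promoters below are those of the gene with the smallest adjusted p in its role group, at most 6 groups, in lower case with E2F words and CCAAT in capitals, read 5′ to 3′ along the gene's strand. They lie at chr3:127598161-127598460, plus strand (MCM2), chr22:19479670-19479969, plus strand (CDC45, the first of 3 in the table), chr1:52404374-52404673, minus strand (ORC1), chr14:49688165-49688464, minus strand (POLE2), chr7:74254350-74254649, minus strand (RFC2) and chr1:35769929-35770228, minus strand (CLSPN). In MCM2 a pair of overlapping words on opposite strands forms a palindrome at the start site, CLSPN holds 1 E2F word after 3 CCAAT words, CDC45 holds 4 CCAAT words and no E2F word, and RFC2 holds neither.
MCM2: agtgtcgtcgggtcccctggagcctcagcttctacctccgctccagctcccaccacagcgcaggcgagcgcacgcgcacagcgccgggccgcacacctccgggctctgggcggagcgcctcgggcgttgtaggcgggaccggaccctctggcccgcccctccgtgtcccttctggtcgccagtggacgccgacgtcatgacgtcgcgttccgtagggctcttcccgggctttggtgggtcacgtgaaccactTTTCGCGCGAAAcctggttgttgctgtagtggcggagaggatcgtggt
CDC45: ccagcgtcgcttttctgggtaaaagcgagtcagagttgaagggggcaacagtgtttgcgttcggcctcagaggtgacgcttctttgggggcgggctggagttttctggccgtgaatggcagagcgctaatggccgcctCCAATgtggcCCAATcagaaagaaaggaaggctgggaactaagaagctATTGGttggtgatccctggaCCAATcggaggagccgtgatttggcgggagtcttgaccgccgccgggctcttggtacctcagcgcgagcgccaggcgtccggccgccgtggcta
ORC1: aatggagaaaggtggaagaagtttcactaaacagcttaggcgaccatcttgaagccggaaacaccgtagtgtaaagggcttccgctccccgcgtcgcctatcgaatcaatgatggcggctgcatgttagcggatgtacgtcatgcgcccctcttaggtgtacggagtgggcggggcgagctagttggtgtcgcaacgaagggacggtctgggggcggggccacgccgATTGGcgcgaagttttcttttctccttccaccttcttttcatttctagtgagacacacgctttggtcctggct
POLE2: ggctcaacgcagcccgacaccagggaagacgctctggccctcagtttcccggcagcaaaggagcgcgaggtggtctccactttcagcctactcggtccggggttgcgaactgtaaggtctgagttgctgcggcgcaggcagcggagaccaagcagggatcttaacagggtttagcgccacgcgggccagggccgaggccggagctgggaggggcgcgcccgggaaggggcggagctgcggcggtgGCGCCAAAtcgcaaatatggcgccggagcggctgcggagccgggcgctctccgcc
RFC2: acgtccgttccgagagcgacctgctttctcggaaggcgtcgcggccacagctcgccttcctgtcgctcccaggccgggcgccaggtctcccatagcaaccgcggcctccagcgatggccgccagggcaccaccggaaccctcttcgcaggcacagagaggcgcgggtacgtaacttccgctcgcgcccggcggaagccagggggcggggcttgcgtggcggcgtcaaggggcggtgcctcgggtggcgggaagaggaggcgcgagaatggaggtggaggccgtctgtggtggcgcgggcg
CLSPN: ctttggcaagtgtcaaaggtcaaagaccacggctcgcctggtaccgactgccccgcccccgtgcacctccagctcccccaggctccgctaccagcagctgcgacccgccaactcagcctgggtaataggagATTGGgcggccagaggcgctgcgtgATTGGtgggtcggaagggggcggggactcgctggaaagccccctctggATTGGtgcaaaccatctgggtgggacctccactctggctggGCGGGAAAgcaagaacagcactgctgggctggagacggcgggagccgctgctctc

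In all deep barcodes, each of the 39 replication genes was lower after DOX. edgeR's quasi-likelihood test on UMIs summed per library called 39 of 39 lower, where 26.4% of the 21563 genes tested were called lower, and 0 of 39 higher, where 28.2% were. The summed level of the 39 genes was 3313 and 3358 CPM (UMIs per 1000000 deep UMIs) in the untreated and 2170 and 2298 CPM in the DOX libraries. The median log2 fold change was -0.79 over the 39 genes and 0.04 over all genes tested, and single genes ran from -1.01 (MCM10) to -0.46 (POLD2). For each of the 39 genes both DOX libraries lay below both untreated libraries, as they did for 23.3% of the genes tested. Mean levels after DOX were 55.7% (MCM10) to 82.0% (POLD2) of untreated. In sums over all deep barcodes, fewer cycling cells and fewer transcripts per cell cannot be told apart. Fold changes carry TMM scaling, which places them 0.17 lower on the log2 scale than the ratio of CPM, and without it all 39 were still called lower, with a median of -0.62 beside 0.21 for all genes and with 3259 genes lower and 8472 higher in place of 5695 and 6077.

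**Figure D1:**
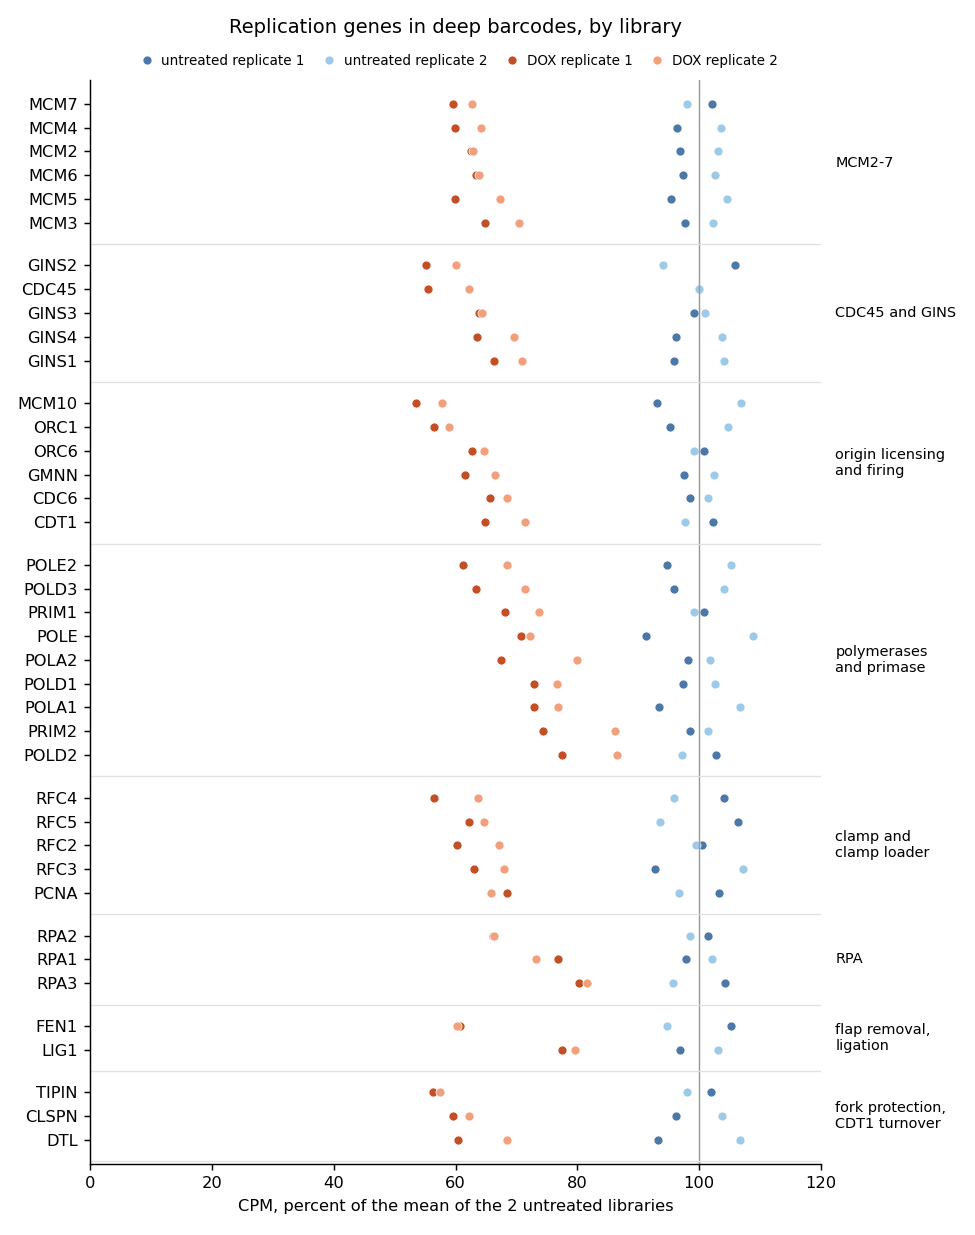
Level of each replication gene in the deep barcodes of each library, on the x axis as CPM in percent of the mean of the 2 untreated libraries, with genes in rows grouped by role. Each point is 1 library. The DOX points lie to the left of the untreated points in every row, closest for POLD2, PRIM2 and RPA3.

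All 6 genes of the MCM2-7 ring fell, from -0.88 to -0.73 on the log2 scale, where 26.4% of all genes tested were called lower. Gene positions here and below are on hg19, the build of the count tables. MCM7 (chromosome 7, 99689856 to 99699563, minus strand), a subunit of the ring, had 175 and 168 CPM in the untreated and 102 and 107 CPM in the DOX libraries, with a log2 fold change of -0.88 (SE 0.07, edgeR adjusted p = 2.88e-05). MCM3 (chromosome 6, 52128812 to 52149679, minus strand) had the smallest change of the ring, -0.73 (SE 0.07, edgeR adjusted p = 4.37e-05), from 171 and 179 against 113 and 123 CPM. DOX libraries were the low ones for both genes, with no overlap, as for 23.3% of the genes tested. MCM2, MCM4, MCM5 and MCM6 had changes between these, from -0.85 to -0.82. The make-up of the ring's UMIs, which no scaling can change, moved little: MCM3 took 24.9% and 25.1% in the untreated and 26.3% and 26.8% in the DOX libraries, MCM7 took 25.5% and 23.5% to 23.6% and 23.4%, and the other 4 subunits stayed within 1 percentage point of their untreated range.

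Among the partners that activate the ring, GINS2 (chromosome 16, 85709804 to 85723679, minus strand), a subunit of the GINS tetramer, had 125 and 111 CPM in the untreated and 65.1 and 70.9 CPM in the DOX libraries and changed by -0.97 (SE 0.09, edgeR adjusted p = 5.31e-05). GINS1 (chromosome 20, 25371644 to 25433336, plus strand) changed least, by -0.71 (SE 0.06, edgeR adjusted p = 2.75e-05), from 52.9 and 57.3 against 36.5 and 39.1 CPM. All 5 genes of this group fell with no overlap between the conditions, CDC45 by 0.93 on the log2 scale. Over all genes tested, 26.4% were called lower, and both DOX libraries lay below both untreated ones for 23.3%.

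Origin genes held the deepest fall. MCM10 (chromosome 10, 13203558 to 13253110, plus strand), which is needed to switch the loaded helicase on, had 77.4 and 89.0 CPM in the untreated and 44.6 and 48.1 CPM in the DOX libraries, a log2 fold change of -1.01 (SE 0.07, edgeR adjusted p = 8.73e-06). ORC1, the origin recognition subunit whose level cycles, was next at -0.96, from 25.6 and 28.2 against 15.2 and 15.9 CPM. ORC6 (chromosome 16, 46723555 to 46732306, plus strand) had 83.1 and 81.8 against 51.6 and 53.3 CPM and changed by -0.82 (SE 0.06, edgeR adjusted p = 2.11e-05). The licensing factor CDT1 (chromosome 16, 88870197 to 88875666, plus strand) had 85.3 and 81.4 CPM in the untreated and 54.0 and 59.5 CPM in the DOX libraries and the smallest change of the group, -0.72 (SE 0.08, edgeR adjusted p = 8.48e-05). Its inhibitor geminin (GMNN, chromosome 6, 24775159 to 24786327, plus strand) had 98.6 and 104 against 62.2 and 67.3 CPM and changed by -0.81 (SE 0.06, edgeR adjusted p = 2.01e-05). Of the UMIs of inhibitor and target together, geminin made up 53.6% and 56.0% in the untreated and 53.5% and 53.1% in the DOX libraries. The DOX shares lay just under the lower untreated one. The loader CDC6 fell as well, by 0.74 on the log2 scale.

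All 9 genes of the polymerases and primase fell, where 26.4% of all genes tested were called lower. Their median log2 fold change was -0.61, between the -0.58 of the 3 RPA genes and the -0.71 of FEN1 and LIG1. Whether role groups differ from each other was not tested. POLE2 (chromosome 14, 50110273 to 50155140, minus strand), the second subunit of leading-strand polymerase epsilon, had 59.4 and 65.9 CPM in the untreated and 38.4 and 42.9 CPM in the DOX libraries and changed by -0.79 (SE 0.07, edgeR adjusted p = 2.99e-05). POLD2 (chromosome 7, 44154230 to 44163957, minus strand), the shared small subunit of polymerase delta, had 152 and 144 CPM in the untreated and 114 and 128 CPM in the DOX libraries and changed by -0.46 (SE 0.08, edgeR adjusted p = 0.00147), the smallest change of all 39 genes. The primase subunits differed in size of change, with PRIM1 at -0.66 and PRIM2 at -0.48. Both are uncertain, since PRIM2 has near-identical partial copies in the genome and the end of PRIM1 overlaps NACA on the same strand. POLD1 and POLD3 also overlap a neighbour on their strand. POLA1, POLA2, POLD1, POLD3 and POLE lay from -0.74 to -0.58.

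The clamp loader gene RFC4 (chromosome 3, 186507669 to 186524847, minus strand) had 78.9 and 72.6 CPM in the untreated and 42.8 and 48.2 CPM in the DOX libraries, a change of -0.91 (SE 0.09, edgeR adjusted p = 5.32e-05). The clamp itself, PCNA (chromosome 20, 5095599 to 5107272, minus strand), had 225 and 210.5 against 149 and 143 CPM and changed by -0.74 (SE 0.08, edgeR adjusted p = 0.0001), the least of its group. Of the single-strand binding complex, RPA2 (chromosome 1, 28218035 to 28241257, minus strand) had 92.5 and 89.9 against 60.3 and 60.4 CPM and changed by -0.76 (SE 0.07, edgeR adjusted p = 3.41e-05), and RPA3 (chromosome 7, 7676149 to 7758238, minus strand) had 154 and 141 against 118 and 120.1 CPM and changed by -0.48 (SE 0.08, edgeR adjusted p = 0.0011). The DOX libraries were lower for each of these genes, as for 23.3% of the genes tested, with the narrowest gap for RPA3.

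The flap nuclease FEN1 (chromosome 11, 61560383 to 61564710, plus strand, overlapping FADS2 on the same strand) had 118 and 106 CPM in the untreated and 68.0 and 67.5 CPM in the DOX libraries and changed by -0.90 (SE 0.08, edgeR adjusted p = 5.31e-05). The ligase LIG1 (chromosome 19, 48618702 to 48673860, minus strand), which seals the same joints, had 47.9 and 51.0 against 38.3 and 39.3 CPM and changed by -0.52 (SE 0.06, edgeR adjusted p = 9.72e-05). TIPIN (chromosome 15, 66628529 to 66679084, minus strand), the partner of TIMELESS in the fork protection complex, had 70.4 and 67.7 CPM in the untreated and 38.9 and 39.7 CPM in the DOX libraries and changed by -0.98 (SE 0.07, edgeR adjusted p = 1.13e-05). DTL (chromosome 1, 212208895 to 212280742, plus strand), which directs a ubiquitin ligase to CDT1 in S phase, had 55.7 and 63.8 against 36.1 and 40.9 CPM and changed by -0.80 (SE 0.07, edgeR adjusted p = 4.11e-05). The checkpoint adaptor CLSPN was between them at -0.88.

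The next question was whether the fall held among cells that still expressed proliferation genes. A deep barcode was called cycling when MKI67 and TOP2A together had at least 15 UMIs. TOP2A encodes the target of DOX. Both genes rise through S phase and peak in G2 and mitosis, so cells early in the cycle can fall outside this gate. Cycling barcodes made up 75.2% (95% exact binomial interval 73.7 to 76.6%) and 84.5% (82.9 to 86.0%) of deep barcodes in the untreated and 48.0% (45.3 to 50.8%) and 52.2% (49.2 to 55.2%) in the DOX libraries. Both DOX shares were lower, by 29.7 percentage points on average, beside a pooled SD of 5.09 points between replicates. An exact permutation test over the 4 libraries gave p = 0.33, two-sided, the smallest value that 2 against 2 allow. The binomial intervals cover counting error only. Median depths were 81858 and 87004 UMIs in cycling and 53026 and 57339 UMIs in other untreated barcodes, and 78222 and 90268 against 64817 and 73793 UMIs in the DOX libraries.

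Among cycling barcodes the replication genes were lower by a smaller amount. The test called 31 of 39 lower, where 15.9% of the 20167 genes tested were, and 0 of 39 higher, where 16.4% were. The median log2 fold change was -0.30 over the 39 genes and 0.03 over all genes tested, and the summed level was 3307 and 3384 CPM in the untreated against 2861 and 2965 CPM in the DOX libraries. All 6 MCM2-7 genes, all 5 of CDC45 and GINS, all 6 origin genes and all 5 clamp genes were called lower. So were all 3 genes of fork protection and CDT1 turnover, but 3 of 9 polymerase and primase genes were (POLD3, POLE and POLE2). POLE passed narrowly, at -0.21 (SE 0.07, edgeR adjusted p = 0.0471). Its libraries overlapped, with 42.0 and 50.5 CPM in the untreated and 42.1 and 43.0 CPM in the DOX libraries, and it lost the call under 9 of 19 alternatives. The count of the 39 genes called lower was 22 without TMM, where 8.82% of the genes tested were lower. It was 21 without DOX replicate 1 and 22 without DOX replicate 2, where the medians of the 39 genes were -0.32 and -0.33 and calls over all genes fell as well, to 1945 of 21603 and 1784 of 21748 genes lower.

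The deepest fall of the 39 genes in cycling barcodes was that of TIPIN, which had 69.1 and 67.5 CPM in the untreated and 45.3 and 46.4 CPM in the DOX libraries and changed by -0.67 (SE 0.07, edgeR adjusted p = 9.64e-05). GINS2 followed, at -0.49 (SE 0.08, edgeR adjusted p = 0.00192) from 122 and 111 against 85.4 and 91.3 CPM, then MCM10 at -0.47 (SE 0.07, edgeR adjusted p = 0.00076) from 77.2 and 89.8 against 63.4 and 64.9 CPM. For these 3 genes both DOX libraries were low. The 8 genes that did not pass the test were POLA1, POLA2, PRIM1, PRIM2, POLD1, POLD2, RPA3 and LIG1, with log2 fold changes from -0.22 to -0.02. LIG1 had 48.2 and 51.6 CPM in the untreated and 51.9 and 50.1 CPM in the DOX libraries, with a change of -0.06 (SE 0.06, edgeR adjusted p = 0.51), and RPA3 had 154 and 141 against 152 and 154 CPM, with a change of -0.04 (SE 0.08, edgeR adjusted p = 0.71). In both genes the libraries of the conditions overlapped. The change of LIG1 turned positive without TMM (0.03), that of RPA3 too (0.05), and that of PRIM2 as well (0.07), all far from the threshold. PCNA passed, at -0.33 (SE 0.08, edgeR adjusted p = 0.0121) from 224 and 211 against 191 and 177 CPM.

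In the other deep barcodes, those under 15 UMIs of MKI67 and TOP2A, the fall was deeper. All 39 genes were called lower, where 27.7% of the 18808 genes tested were, and 0 higher, where 29.0% were. Summed levels were 3346 and 3123 CPM in the untreated and 1432 and 1459 CPM in the DOX libraries, so the untreated level per UMI was close to that inside the gate. Since untreated barcodes outside the gate were shallower, they held fewer UMIs of these genes each. The median log2 fold change was -1.45, beside 0.07 over all genes tested. MCM10 had 78.5 and 82.1 CPM in the untreated and 24.4 and 26.9 CPM in the DOX libraries, a change of -1.85 (SE 0.07, edgeR adjusted p = 2.07e-09). ORC1 had 28.4 and 28.4 against 9.91 and 9.05 CPM and CDC45 41.9 and 39.8 against 12.8 and 14.9 CPM, with means after DOX at 33.4% and 33.9% of untreated. POLD2 again changed least, with 151 and 140.3 against 99.5 and 109 CPM and a log2 fold change of -0.70 (SE 0.07, edgeR adjusted p = 2.91e-06), followed by RPA1 at -0.77 (SE 0.07, edgeR adjusted p = 9.37e-07).

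**Figure D2:**
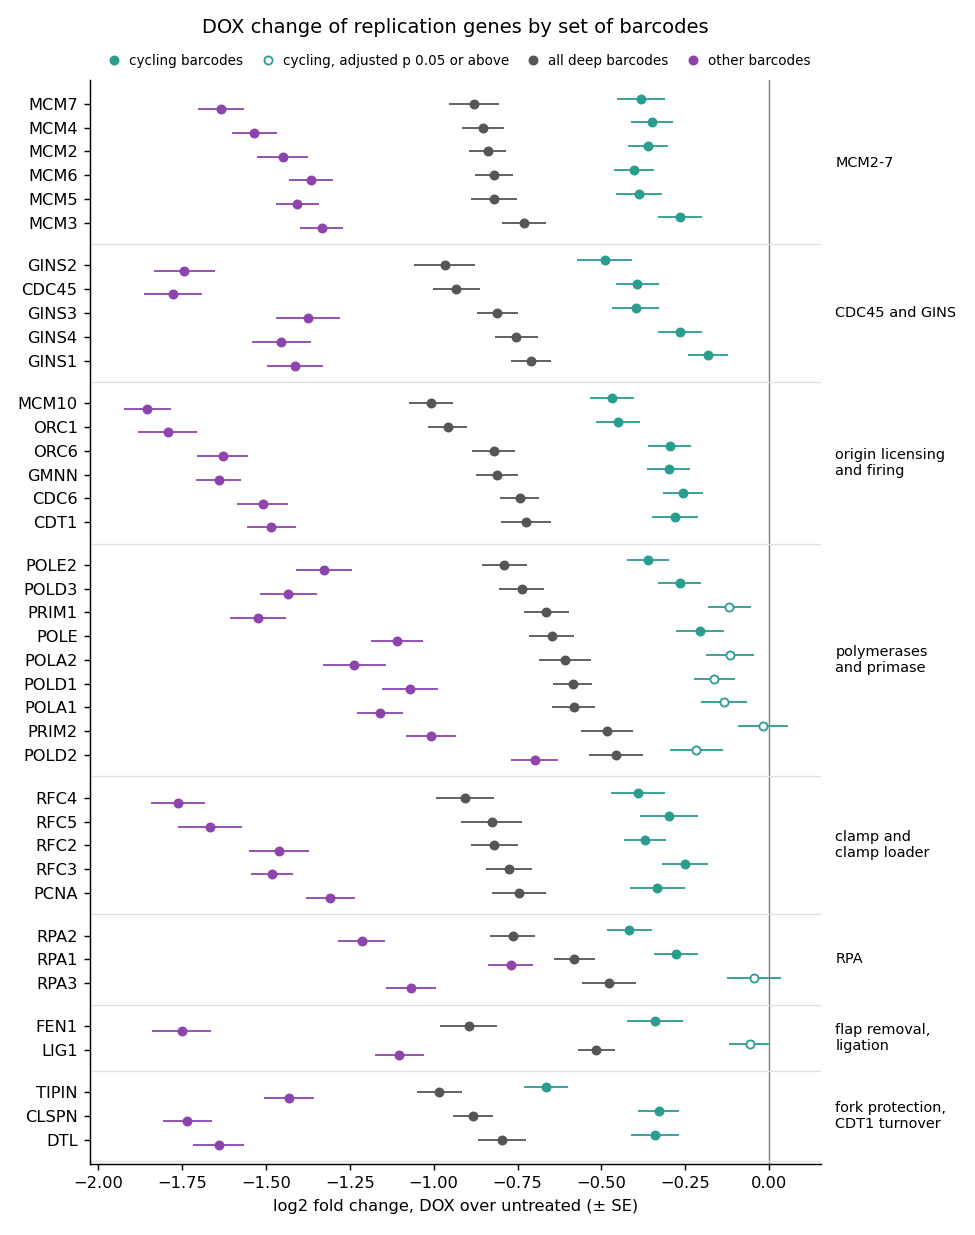
Log2 fold change of each replication gene (x axis, DOX over untreated, points with SE from edgeR) in cycling, all deep and other deep barcodes, with genes in rows grouped by role. Open points did not pass the adjusted p of 0.05; for every gene the change in other barcodes lies farthest from 0 and that in cycling barcodes nearest.

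The difference between these changes was tested in 1 model with the library as a block. The gate itself chooses barcodes by cell cycle genes in both conditions. Its part in this difference was not tested beyond other gates. All 39 genes changed by different amounts, each with the smaller fall in cycling barcodes, where 20.8% of the 19546 genes tested differed in that direction, 10.9% differed in the opposite one, and 0 of the 39 did. The median difference was 1.21 on the log2 scale over the 39 genes and 0.02 over all genes. It was not particular to the 39 genes. Of the comparison lists described below, 20 of 20 G2 and mitosis genes differed in the same direction, with a median of 1.72. So did 26 of 29 other replication genes, with a median of 0.98, while 1 differed in the opposite direction and 2 did not pass. The smallest adjusted p belonged to FEN1, which had 119 and 107 against 97.1 and 93.9 CPM in cycling and 111 and 94.6 against 36.9 and 34.3 CPM in other barcodes, a difference of 1.45 (SE 0.06, edgeR adjusted p = 8.76e-09). MCM7 had 174 and 168 against 137 and 142 CPM and 176 and 164 against 63.8 and 63.0 CPM in the same order, a difference of 1.29 (SE 0.06). Untreated levels of both genes lay close together in the 2 classes, and the DOX libraries were lowest in the other barcodes.

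RFC4 had 77.7 and 72.5 against 57.7 and 64.5 CPM in cycling and 85.0 and 73.7 against 26.8 and 27.6 CPM in other barcodes, a difference of 1.40 (SE 0.06). ORC6 had 82.7 and 82.5 against 71.3 and 71.9 CPM and 84.9 and 76.0 against 30.6 and 29.9 CPM, and GMNN 97.1 and 104 against 83.4 and 90.2 CPM and 106 and 104 against 39.6 and 38.5 CPM, with differences of 1.37 and 1.38. For GINS2, MCM10 and CDT1 the differences were 1.29, 1.43 and 1.24. These 8 genes span the ring, GINS, the origin, the clamp loader and flap removal. POLD2 (0.52), RPA1 (0.53) and TIPIN (0.80) differed least. POLD2 (-0.70) and RPA1 (-0.77) had the smallest falls of the 39 genes in other barcodes, while TIPIN had the deepest fall of the 39 in cycling ones. MKI67 and TOP2A set the gate, so they carry no result here.

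At equal depth the fall in other barcodes was not spread evenly over cells. Each deep barcode was thinned at random to 20000 UMIs, and its UMIs of the 39 genes were summed. The median over deep barcodes was 67 and 68 UMIs in the untreated and 48 and 51 UMIs in the DOX libraries (exact permutation p = 0.33, two-sided, the smallest possible). Cycling barcodes had medians of 65 and 67 against 58 and 60 UMIs. Other barcodes had 71 and 70 against 20 and 20 UMIs. Their upper quartiles were 81 and 79 UMIs in the untreated and 58 and 63 UMIs in the DOX libraries, beside lower quartiles of 60 and 55 against 10 and 10 UMIs. The DOX upper quartiles thus lay near the untreated lower ones, and 18.4% and 21.5% of other DOX barcodes reached 67 UMIs, the untreated median over all deep barcodes. Those with a sum under 20 UMIs made up 4.17% (2.95 to 5.70%) and 8.13% (5.43 to 11.6%) of other barcodes in the untreated but 49.2% (45.4 to 53.02%) and 48.8% (44.4 to 53.2%) in the DOX libraries. In cycling barcodes the same share was 0% (0 of 2685, 0 to 0.137%) and 0.0554% (1 of 1805, 0.0014 to 0.308%) in the untreated and 2.23% (1.22 to 3.71%) and 1.77% (0.853 to 3.24%) in the DOX libraries, so it was higher with DOX in both classes. A limit of 10 UMIs gave 23.1% (20 to 26.5%) and 21.7% (18.2 to 25.5%) of other DOX barcodes, and one of 30 UMIs 57.9% (54.1 to 61.6%) and 57.6% (53.2 to 61.9%). In bins of 5 UMIs, other DOX barcodes were most frequent from 5 to 9 UMIs (20.9% and 18.6%), thinned to 2.21% and 1.94% from 30 to 34 UMIs and rose again to 4.86% and 6.78% from 70 to 74 UMIs. Other untreated barcodes had 12.7% and 15.4% in that upper bin. These limits describe a range and were set after the values had been seen.

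**Figure D3:**
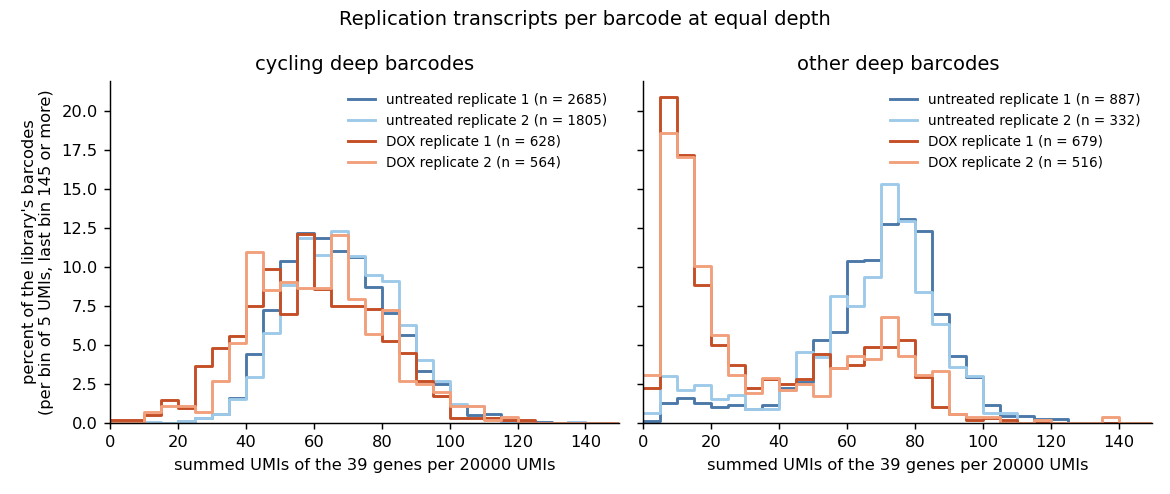
Distribution of the summed UMIs of the 39 genes per barcode after thinning to 20000 UMIs (x axis, bins of 5 UMIs), as percent of the barcodes of each library (y axis), for cycling (left) and other (right) deep barcodes. Lines are libraries; the other DOX barcodes peak both under 20 UMIs and near the untreated mode, while cycling barcodes form a single broad peak in each library.

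The genes also varied together from cell to cell, more so after DOX. The correlation of a gene with the sum of the other 38 over thinned deep barcodes had a median over the genes of 0.22 and 0.21 in the untreated and 0.47 and 0.44 in the DOX libraries. In the DOX libraries it was highest for CLSPN (0.63) and MCM3 (0.63), and lowest in both for GINS3 (0.20 and 0.16), the gene with the lowest counts. In the untreated libraries the lowest were POLD2 (0.01) and RPA3 (0.002). The barcodes share library and base depth, thinned counts are sparse, and the low peak of DOX barcodes enters these values, so they are a description.

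Of 29 other replication genes, 26 fell, 1 rose and 2 did not pass the test in all deep barcodes, with a median log2 fold change of -0.62. Over all genes tested there, 26.4% were called lower and 28.2% higher. RECQL4, a helicase relative needed for initiation, had 34.3 and 36.1 against 20.3 and 22.0 CPM and changed by -0.90 (SE 0.06, edgeR adjusted p = 1.07e-05). DBF4, the activator of the CDC7 kinase, had 115 and 128 against 76.6 and 80.3 CPM and changed by -0.80 (SE 0.06, edgeR adjusted p = 1.96e-05). ORC4 (-0.09 (SE 0.07, edgeR adjusted p = 0.29)) and RNASEH2C (-0.10 (SE 0.07, edgeR adjusted p = 0.22)) did not pass. In cycling barcodes 13 of the 29 fell, 1 rose and 15 did not pass, where 15.9% of all genes tested were lower and 16.4% higher. In other barcodes 27 fell, 1 rose and 1 did not pass, where 27.7% were lower and 29.0% higher.

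The gene that rose was POLD4, the smallest and accessory subunit of polymerase delta, whose other subunits POLD1, POLD2 and POLD3 fell. POLD4 had 21.4 and 21.6 CPM in the untreated and 54.5 and 58.7 CPM in the DOX libraries, a log2 fold change of 1.23 (SE 0.06, edgeR adjusted p = 2.61e-06). It rose in cycling barcodes, from 20.7 and 20.9 against 34.2 and 38.0 CPM (0.70 (SE 0.07, edgeR adjusted p = 8.72e-05)), and more in other barcodes, from 25.0 and 27.5 against 76.3 and 84.9 CPM (1.41 (SE 0.08, edgeR adjusted p = 1.96e-08)), with a tested difference of -0.68 (SE 0.08, edgeR adjusted p = 2.22e-05). Within the UMIs of the 4 delta subunits POLD4 took 9.18% and 9.41% in the untreated and 25.9% and 25.3% in the DOX libraries. In cycling barcodes its share went from 8.91% and 9.12% to 15.7% and 15.9%, and in other barcodes from 10.5% and 12.1% to 37.6% and 38.0%. The other 3 subunits lost share in other barcodes, POLD2 from 63.6% and 61.9% to 49.0% and 48.7%, the accessory POLD3 from 16.9% and 16.5% to 7.73% and 7.96%, and the catalytic POLD1 from 8.88% and 9.47% to 5.71% and 5.32%. These shares rest on the counts alone and do not change with scaling. Protein was not measured.

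**Figure D4:**
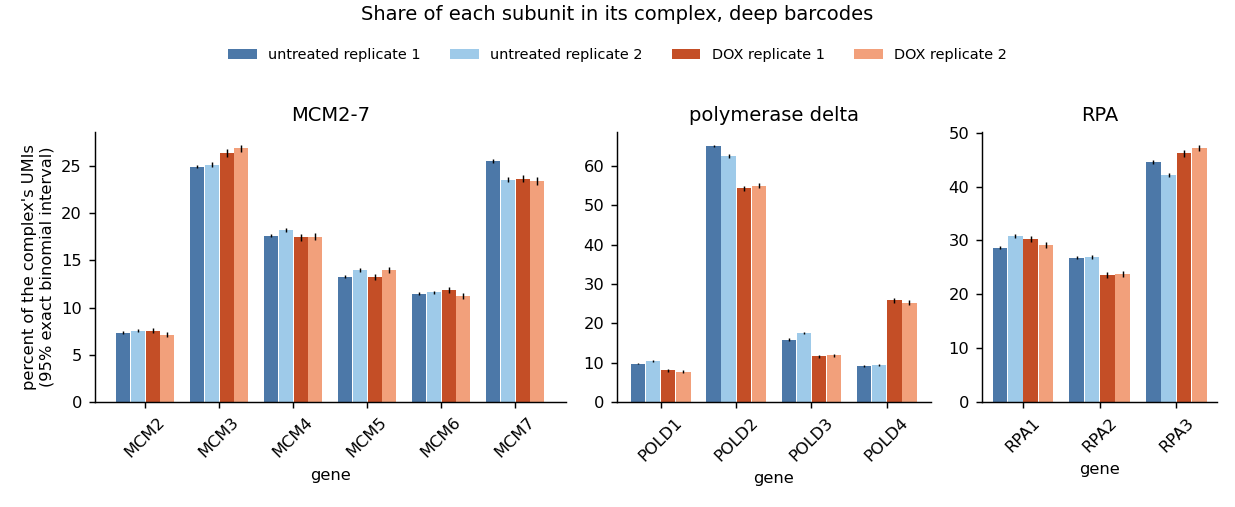
Share of each subunit in the UMIs of its complex (y axis, percent, with 95% exact binomial intervals for counting error) in the deep barcodes of each library, for MCM2-7, polymerase delta and RPA. The make-up of the ring moves little, while POLD4 goes from 9.18% and 9.41% to 25.9% and 25.3% of the delta subunits.

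The origin recognition complex also changed in make-up. ORC1 and ORC6, the subunits among the 39 genes, took smaller shares of the UMIs of ORC1 to ORC6 after DOX, and ORC2 and ORC4 larger ones. In other barcodes ORC6 went from 25.9% and 23.2% to 13.2% and 12.9%, ORC1 from 8.64% and 8.68% to 4.28% and 3.91%, ORC2 from 19.1% and 21.7% to 28.0% and 27.0% and ORC4 from 15.3% and 15.7% to 22.8% and 24.2%, while ORC3 and ORC5 stayed between 12.7% and 18.5%. In cycling barcodes the shift was smaller, with ORC6 going from 23.9% and 22.8% to 22.0% and 21.8%, and the shares of ORC2 overlapped (21.7% and 23.4% against 22.4% and 23.1%). For RPA, the share of RPA2 went from 26.8% and 26.9% to 23.6% and 23.7% in all deep barcodes. The complexes shown were chosen after their values had been seen, and their shares carry no test.

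For comparison, 20 genes of G2 and mitosis all fell in all deep barcodes (median log2 fold change -0.87), where 26.4% of the genes tested were lower. In cycling barcodes 12 of 20 fell (median -0.22), where 15.9% were lower, and in other barcodes 20 of 20 (median -1.87), where 27.7% were. The gate genes MKI67 and TOP2A peak in the same phases, so these counts by class are tied to the gate and are a description. Barcodes left out for depth or mitochondrial share were summed apart. Those under 20000 UMIs had 3183 and 3918 CPM of the 39 genes in the untreated and 1365 and 1379 CPM in the DOX libraries, where 6114 and 6269 of the 8000 barcodes were of this kind. The authors set the number of barcodes called in the DOX libraries to 8000 and left it to the caller in the untreated ones, so these shallow barcodes were not chosen alike, and their levels are given side by side with no comparison. Those with at least 20000 UMIs and 8% or more mitochondrial UMIs had 2711 and 2791 against 1331 and 1447 CPM, so admitting mitochondrial shares up to 20% deepened the median log2 fold change in deep barcodes to -1.06.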

How the data were processed

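The values are raw UMI counts per gene and barcode in 4 droplet libraries, as deposited. Cell Ranger on hg19 was used by the authors, version 7.2.0 per the file headers and 7.0.0 per the submitters' processing notes, which also list CASAVA 1.8.2, SAMtools 1.2 and bedtools 2.25. Nothing was normalized before deposit. The members and gene lists were chosen with earlier results of these data known.

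Barcodes with at least 20000 UMIs and under 8% mitochondrial UMIs were kept, and cycling ones had at least 15 UMIs of MKI67 and TOP2A. UMIs were summed per library and compared in edgeR 4.0.16 by its quasi-likelihood F test (filterByExpr for low counts, TMM factors, Benjamini-Hochberg adjustment over all genes tested, threshold 0.05), 2 libraries against 2. The difference between classes was the class by condition term with library as a block. Thinning drew UMIs without replacement under a fixed seed. No doublet caller was run and no background RNA was removed. The scripts were tested on simulated data. Named in full were, in each role group, the genes with the largest and smallest change in deep barcodes, the 8 genes with the smallest adjusted p for the difference, PCNA, and 3 other replication genes, with CDKN1A, GDF15 and MDM2 as a check of the labels. GINS3, CDC45, RPA1, POLD1, POLD3, POLE and ORC1 to ORC5 were named beyond this rule after their values were seen. Deep libraries held 102333220 to 291488794 UMIs. For genes of low level the spread between 2 libraries can be under the counting error, and SDs of 2 values are themselves imprecise. Gene positions are from GENCODE v44 lifted to hg19, and promoters from RefSeq (GRCh38.p14), whose coordinates were not mixed. Alternatives covered the tool (DESeq2 1.42.0), scaling, filters, depth and mitochondrial limits, upper limits of 12000 genes and 150000 UMIs, the 5% of barcodes with most UMIs, thinning, the gate and each library. Scripts ran in Python 3.11.15 (pandas 2.3.3, matplotlib 3.10.9, scipy 1.17.1, numpy 2.4.6) and R 4.3.3.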

Additional observations from a re-analysis of the deposited data

Results flagged for a closer look

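All 39 replication genes had a different DOX change in cycling than in other deep barcodes, by edgeR's quasi-likelihood test of the difference with Benjamini-Hochberg adjustment over all genes, and in each the change in cycling barcodes was nearer 0. Over all genes tested, 20.8% differed in the same direction and 10.9% in the opposite one. The same direction was called for 20 of 20 G2 and mitosis genes and 26 of 29 other replication genes. Of those 29, 1 differed in the opposite direction and 2 did not pass. For the 8 genes with the smallest adjusted p, the cycling minus the other log2 fold change was 1.45 (FEN1), 1.29 (MCM7), 1.40 (RFC4), 1.37 (ORC6), 1.29 (GINS2), 1.43 (MCM10), 1.38 (GMNN) and 1.24 (CDT1). The gate on MKI67 and TOP2A chooses barcodes by cell cycle genes in both conditions. The part of that choice in the difference was not tested beyond gates of 10 and 30 UMIs and a gate on thinned counts. Under each of these gates all 39 genes still differed. Over all genes tested, 3630 of 19670, 3881 of 19902 and 4523 of 19470 differed in the same direction under them, in the order given.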

How the results depend on the processing

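In deep and in other barcodes all 39 genes were called lower, and in the test between classes all 39 differed, under every alternative run. Of the 31 genes called lower in cycling barcodes 14 lost the call under at least 1 alternative, and 3 genes that did not pass changed sign. The cycling count was 21 to 34 without 1 library each, 22 without TMM and 26 to 34 otherwise. The labels do not tie replicate numbers to cultures, and same-numbered libraries did not deviate together (correlation 0.0066, 1 value with 2 libraries per condition). A fit with a replicate block called 39, 33 and 39 genes lower in deep, cycling and other barcodes, medians -0.79, -0.30 and -1.45. Over all genes tested, it called 5941 of 21563, 3729 of 20167 and 5299 of 18808 lower. With all 4 libraries kept, the number of all genes called lower was smallest without TMM and largest with mitochondrial shares up to 20%. It was 3259 of 21563 and 6971 of 22539 in deep, and 1778 of 20167 and 4369 of 20756 in cycling barcodes. In other barcodes it was 3378 of 18808 and 5892 of 20432.

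Medians over the 39 genes moved beyond the spread between libraries as follows. In deep barcodes (-0.79) the median was -0.62 without TMM, -1.06 with mitochondrial shares up to 20%, -0.71 with upper limits on genes and UMIs, -0.66 after thinning and -0.73 without barcodes under 1% mitochondrial UMIs, an alternative chosen after seeing the data. In cycling barcodes (-0.30) it was -0.21, -0.39 and -0.25 without TMM, up to 20% and after thinning. In other barcodes (-1.45) it was -1.24, -1.70, -1.32, -1.23 and -1.38 in the order given for deep barcodes, -1.39 without the 5% of barcodes with most UMIs, and -1.67, -1.09 and -1.36 with gates of 10 UMIs, 30 UMIs and 5 thinned UMIs. Leaving out 1 library each, where the lone library left in a condition is assumed to vary like the other condition, gave -0.83 to -0.76 (deep), -0.33 to -0.30 (cycling) and -1.55 to -1.41 (other).

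The difference in cycling share (-29.7 points) was -20.9 points with a gate of 30 UMIs and -34.3 to -25.0 points without 1 library each. The difference in the thinned median sum (-18 UMIs) was -25.5 UMIs with shares up to 20% and -16 UMIs with upper limits, and -19.5 to -16.5 UMIs without 1 library each. In cycling barcodes PRIM2 turned positive without TMM (0.0720), with upper limits (0.0244), without the top 5% (0.0158) and thinned (0.0406), and was -0.111 to 0.0468 without 1 library each (highest without DOX replicate 1). RPA3 did so without TMM (0.0485), with upper limits (0.0104) and thinned (0.0724), and was -0.146 to 0.0604 without 1 library each (highest without untreated replicate 1). LIG1 did so without TMM (0.0318) and thinned (0.0639). None passed the threshold. The cause was not tested.

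Without TMM the share of calls that were higher rose from 51.6% to 72.2% in deep, from 50.7% to 71.9% in cycling and from 51.2% to 70.1% in other barcodes, and fell from 65.6% to 37.5% in the test between classes.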
